A study of Mus musculus with 2 samples.

Results

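Interferon-stimulated effector genes are the genes through which interferon makes a cell hostile to viruses and other intracellular microbes. A set of 42 of them was followed in mouse bone marrow-derived macrophages (BMDMs) given the Toll-like receptor 7 agonist R848, beside untreated cells, by ATAC-seq, in which the Tn5 transposase marks accessible DNA. The members were chosen by name, and a called peak was given to the protein-coding RefSeq gene with an end nearest to its summit, within 100 kb, on the mm10 build. All 42 members were among the 21883 protein-coding genes on the assembled chromosomes, and they took 56 of 37725 R848 peaks and 70 of 77060 untreated peaks. In the R848 list peaks lay at the starts of many members where the untreated list had none, among them Bst2, Gbp2, Gbp3, Herc6, Cmpk2, Ifit3b and Rsad2. Of 33 members with an annotated start, 11 had a peak within 1 kb of it in the R848 list alone (13.4% of all genes did), 6 in both lists (27.3%) and 1 in the untreated list alone (3.82%). Among peaks with a −log10 q of 5 or more, 4 of the 33 (12.1%) had one in the R848 list alone, against 13.0% of all genes.

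The R848 group was 1 library of wild-type (WT) BMDMs grown in M-CSF at 20 ng/ml and given R848 at 100 ng/ml for 2 h. The untreated group was 1 library of WT BMDMs grown in the same way, labelled as untreated and at 0 h in the treatment protocol. Strain, age and sex of the mice, and whether marrow was pooled, are not stated in the labels. With 1 library in each group there were no replicates, so no difference was tested and each is a description of these libraries.

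Cells that sense viral nucleic acid make type I interferon such as the product of Ifnb1. Its receptor signals to transcription factors that bind the interferon-stimulated response element (ISRE) in promoters. The induced proteins bind viral RNA, block translation and budding, attack vacuoles that hold microbes, or tag proteins with the ubiquitin-like modifier ISG15. Several of these genes can also be switched on by IRF3 or IRF7 directly. In macrophages, interferon made after Toll-like receptor activation drives much of the later gene response.

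Promoters are shown because the ISRE can be read in them. The sequences are RefSeq promoter windows of the GRCm38.p6 assembly (the assembly behind mm10), of which the 250 bases before the annotated start are printed, 5′ to 3′ on the gene's strand. Capitals mark each ISRE core, which is GAAA, any 2 bases and GAAA again, or its reverse complement, TTTC, any 2 bases and TTTC. The 4 windows with the strongest overlapping R848 peak come first, at Trim30a (chr7:104465194-104465443, minus strand), Bst2 (chr8:71537473-71537722, minus strand), Gbp2 (chr3:142620413-142620662, plus strand) and Herc6 (chr6:57580742-57580991, plus strand, with no core). Ifit3b (chr19:34607707-34607956, plus strand) was added after its values were seen, for its pair of cores. Its R848 peak had a fold of 4.29. The windows of Adar, Cmpk2 and Gbp3 that overlapped stronger R848 peaks (folds 5.09, 5.04 and 4.71) held no core and are not printed.
Trim30a: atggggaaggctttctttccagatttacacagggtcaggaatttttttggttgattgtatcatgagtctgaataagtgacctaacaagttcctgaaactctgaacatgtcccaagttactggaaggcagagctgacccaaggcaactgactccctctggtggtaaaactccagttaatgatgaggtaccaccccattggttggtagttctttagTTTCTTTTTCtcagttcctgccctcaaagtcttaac
Bst2: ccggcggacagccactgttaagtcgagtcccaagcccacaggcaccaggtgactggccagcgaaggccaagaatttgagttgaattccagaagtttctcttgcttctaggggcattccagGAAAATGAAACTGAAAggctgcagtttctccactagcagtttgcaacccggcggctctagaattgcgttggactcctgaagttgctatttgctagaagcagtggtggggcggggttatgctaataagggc
Gbp2: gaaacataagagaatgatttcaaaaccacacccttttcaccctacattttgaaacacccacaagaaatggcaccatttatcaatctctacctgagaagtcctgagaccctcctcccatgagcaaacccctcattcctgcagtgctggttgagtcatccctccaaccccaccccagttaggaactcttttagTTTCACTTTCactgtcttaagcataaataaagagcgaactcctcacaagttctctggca
Herc6: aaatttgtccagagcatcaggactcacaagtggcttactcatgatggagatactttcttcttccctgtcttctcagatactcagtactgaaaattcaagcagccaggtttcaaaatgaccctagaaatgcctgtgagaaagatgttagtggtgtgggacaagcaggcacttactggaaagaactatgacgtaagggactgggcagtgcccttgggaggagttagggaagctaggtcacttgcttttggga
Ifit3b: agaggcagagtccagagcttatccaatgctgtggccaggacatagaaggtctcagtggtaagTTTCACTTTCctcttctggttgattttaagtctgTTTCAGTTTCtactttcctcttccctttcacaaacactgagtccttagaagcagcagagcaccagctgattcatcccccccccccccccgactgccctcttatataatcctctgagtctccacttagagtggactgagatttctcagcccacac

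Isg15 (chr4:156200819-156201068, minus strand) and Ifit1 (chr19:34640639-34640888, plus strand) had no assigned peak in either list and are shown for comparison. Isg15 encodes the ubiquitin-like modifier itself and Ifit1 a protein that binds viral RNA. The Isg15 window holds 3 overlapping cores and the Ifit1 window 2 separate ones, so promoters rich in the element were among those without a called peak.
Isg15: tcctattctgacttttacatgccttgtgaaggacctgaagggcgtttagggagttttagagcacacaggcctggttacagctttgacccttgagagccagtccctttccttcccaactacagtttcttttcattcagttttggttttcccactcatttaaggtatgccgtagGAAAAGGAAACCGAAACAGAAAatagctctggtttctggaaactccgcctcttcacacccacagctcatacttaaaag
Ifit1: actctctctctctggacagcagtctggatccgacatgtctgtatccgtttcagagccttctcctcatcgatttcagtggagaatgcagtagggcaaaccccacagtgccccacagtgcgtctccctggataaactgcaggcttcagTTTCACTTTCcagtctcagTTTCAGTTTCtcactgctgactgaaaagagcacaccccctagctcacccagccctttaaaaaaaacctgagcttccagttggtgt

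Over the full window of 300 bases, which reaches 50 bases past the start, an ISRE core was found at 20 of 33 members (60.6%, 95% Wilson interval 43.7 to 75.3). Of all 17491 protein-coding genes with a promoter entry, 3.94% had one. The kB motif of NF-kB, searched on both strands, was found at 8 members (24.2%, 12.8 to 41.0) and at 10.5% of all genes. Of 9 kB matches at members 0 overlapped an ISRE core. A match describes letters and not a bound site.

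**Figure D1:**
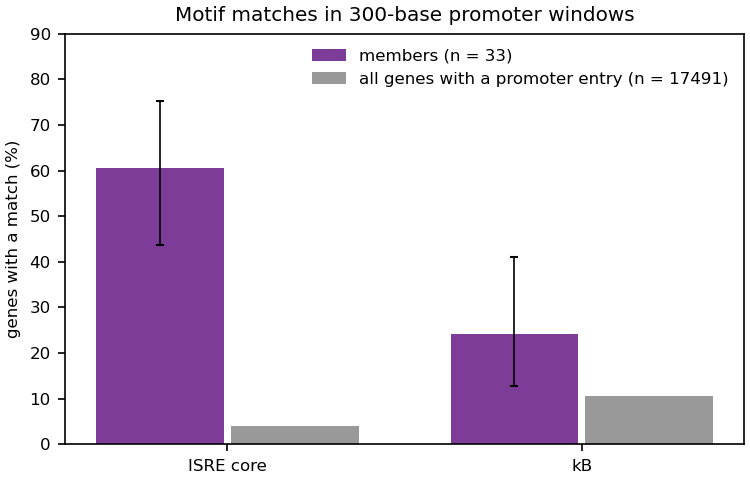
Share of genes with a match to the ISRE core or the kB motif in the 300-base promoter window (vertical axis, percent), for the 33 members (purple, with 95% Wilson intervals) and all 17491 genes with a promoter entry (grey). The ISRE core was present at 60.6% of members and 3.94% of all genes, and the kB motif at 24.2% and 10.5%.

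The authors called peaks once for each library. A peak's fold is the authors' own value, its pileup over the background of that library, and serves here to describe and rank peaks within a list. Read totals are unknown, but pileups in tags could be recovered from the fold and p columns. The background was 1.36 tags in the R848 and 0.968 tags in the untreated library, a ratio of 1.40, and the smallest called pileup was 5 tags in the R848 and 4 tags in the untreated list. Member peaks were weak, with a median of 8.5 tags (5 to 25) in the R848 list and 7 tags (4 to 15) in the untreated list. Over all peaks the medians were 8 tags in the R848 and 7 tags in the untreated list. A q at or under 0.05 was reached by 36 of 56 member R848 peaks (64.3%), against 56.8% of all R848 peaks within 100 kb of a gene end. In the untreated list 45 of 70 member peaks (64.3%) reached it, against 64.4% of all untreated peaks within that distance. The rest, several of them named below, did not. A pileup of 9 tags has an exact 95% Poisson interval of 4.12 to 17.1, so absence of a call does not show closed chromatin, and such intervals cover counting error only.

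At gene starts the members differed most between the lists. A peak with its summit within 1 kb of an annotated start in the R848 list alone was found at 11 of 33 members (33.3%, 95% Wilson interval 19.8 to 50.4), against 13.4% of all genes with a promoter entry. Such a peak in both lists was found at 6 members (18.2%, 8.61 to 34.4), against 27.3% of all genes. In the untreated list alone it was found at 1 member, Samd9l (3.03%, 0.537 to 15.3), against 3.82% of all genes. The remaining 15 members (45.5%) had no such peak, as had 55.5% of all genes. With either end of the gene in place of the start, which brings in all 42 members, the R848 list alone had a peak at 12 (28.6%, 17.2 to 43.6), against 13.0% of all protein-coding genes. With peaks under a −log10 q of 5 dropped from both lists, the class of the R848 list alone held 4 members (12.1%), against 13.0% of all genes. Of the 11, only Bst2, Gbp2 and Herc6 stayed in it. Trim30a entered it from the class of both lists, because its untreated start peak was dropped. The excess was thus seen only with weaker peaks counted.

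**Figure D2:**
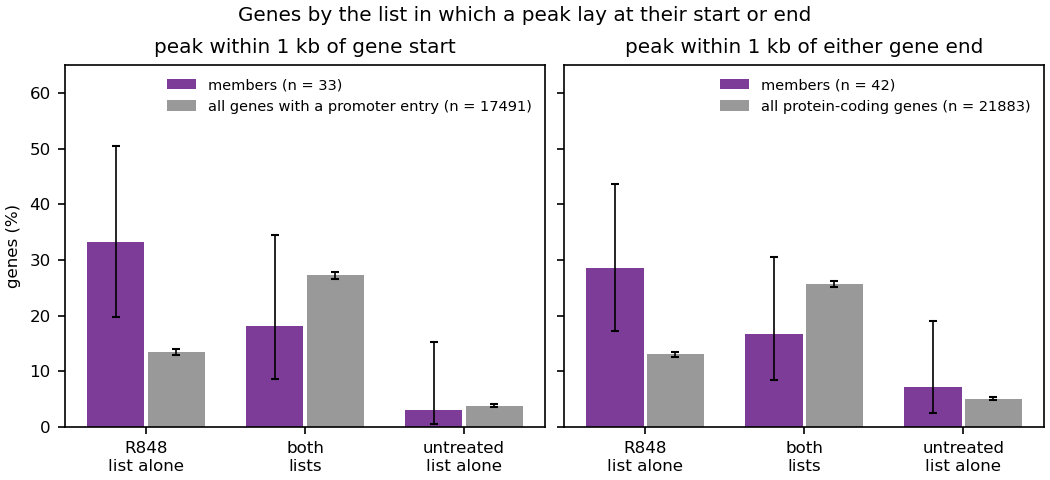
Percent of genes (vertical axis) with a peak summit within 1 kb of the gene start (left panel) or of either gene end (right panel), split by whether the peak was in the R848 list alone, in both lists or in the untreated list alone. Purple bars are members, grey bars all genes, and lines are 95% Wilson intervals. At gene starts the R848 list alone held 33.3% of members and 13.4% of all genes, and both lists held 18.2% and 27.3%.

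The 11 members with a start peak in the R848 list alone were Bst2, Gbp2, Gbp3, Herc6, Cmpk2, Ifit3b, Isg20, Ifit3, Rsad2, Eif2ak2 and Oas3. Their strongest start peaks held 6 to 14 tags with a median of 11, against a median of 9 tags over all 2352 genes of that class. With shared peaks counted too, member peaks were the weaker ones. The 21 member R848 peaks within 1 kb of a gene end had a median of 10 tags and fold 4.13. All 7976 such R848 peaks had a median of 12 tags and fold 5.0. At 10 of the 11 the R848 peak had a q at or under 0.05, and Oas3 was the exception. Scaled by the ratio of the backgrounds, the same pileups would be 4.29 tags at Oas3 and 5.71 tags at Eif2ak2, the lowest values, in the untreated library, where the smallest called pileup was 4 tags. The missing untreated call at Oas3 is therefore at the detection limit. Others of the 11 are not clearly apart from it. Ifit3 and Rsad2 scale to 6.43 tags, and the interval of their R848 pileups, 4.12 to 17.1 tags, comes close to that limit even before scaling. That scaling reads the background ratio as relative depth, which holds only if reads were extended alike.

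Bst2, which encodes tetherin, the membrane protein that holds budding virions at the cell surface, had the strongest of them. Its peak (chr8:71537168-71537695) lay 56 bp upstream of the start with a fold of 5.95 and 14 tags (exact Poisson interval 7.65 to 23.5), at percentile 87.5 of the R848 list. No untreated peak was assigned to the gene. Both ISRE cores printed above lay inside the peak, 63 and 69 bp from its summit.

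**Figure D3:**
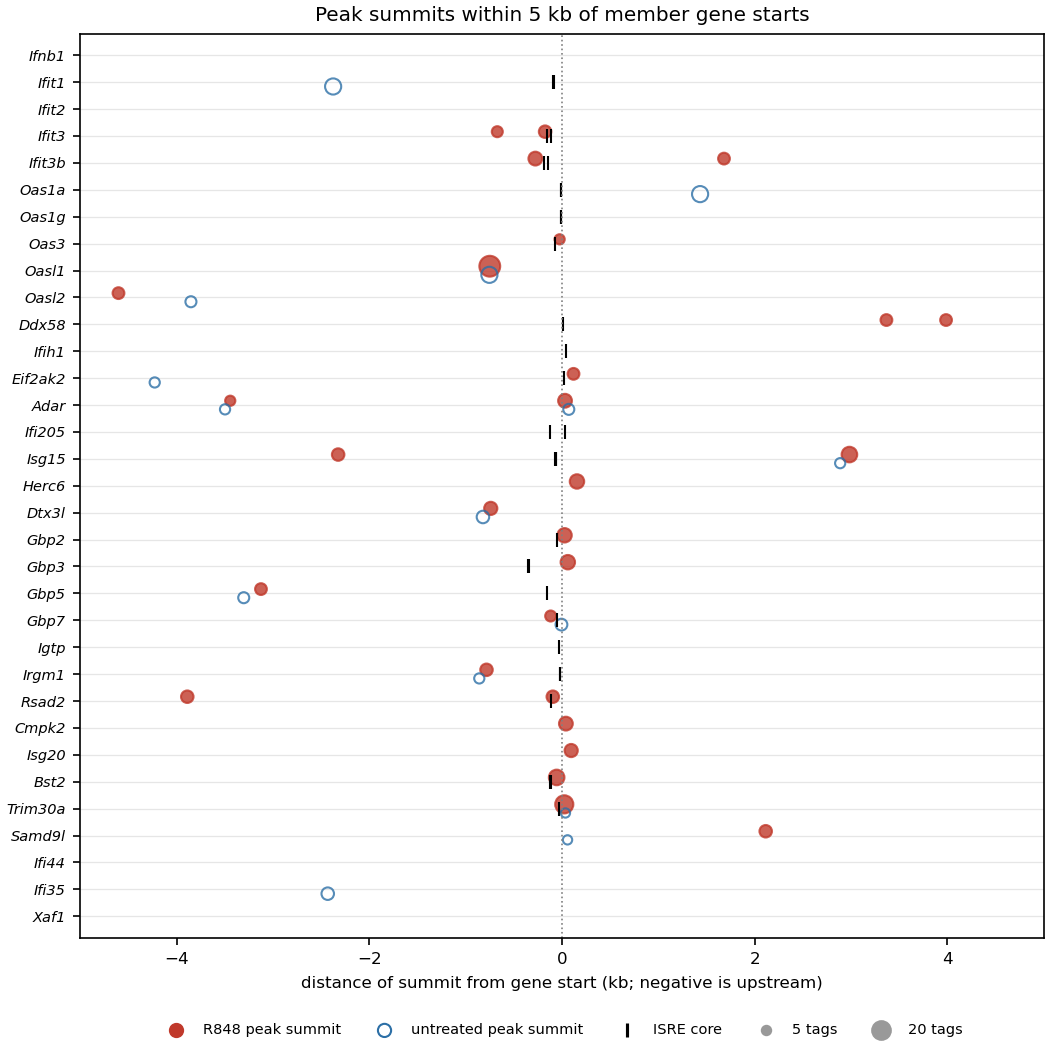
Summits of called peaks within 5 kb of the start of each of the 33 members with a promoter entry (horizontal axis, distance in kb along the gene's direction, with each gene on its own row). Filled red circles are R848 peaks, open blue circles untreated peaks, circle area follows the tags, and black ticks are ISRE cores. Red circles without a blue partner gather at the dotted start line for the 11 genes from Bst2 to Oas3.

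Ifnb1, the interferon itself, was placed among the members as the signal upstream of the others. The R848 list held 2 peaks assigned to it and the untreated list 4, with no overlap. The stronger R848 peak (chr4:88537186-88537643) lay 14707 bp upstream of the start with a fold of 5.51 and 12 tags. The untreated peaks held 5 to 8 tags and lay between 22809 and 33805 bp downstream of the start. No peak of either list was called within 1 kb of the Ifnb1 start.

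The IFIT genes encode proteins that bind the ends of foreign RNA and lie together within 99.5 kb of chromosome 19. Across the locus 5 peaks were R848-only, 3 were untreated-only and none was in both lists. At Ifit3b an R848 peak (chr19:34607190-34607943) of 11 tags and fold 4.29 had its summit 277 bp upstream of the start, and its ISRE cores lay inside it, 93 and 127 bp from the summit. At Ifit3 a peak (chr19:34583277-34583547) of 9 tags and fold 3.97 lay 176 bp upstream, with cores 24 and 58 bp from the summit, and a further peak of 7 tags lay 672 bp upstream. Ifit2 had 1 R848 peak of 7 tags 11067 bp upstream and 2 untreated peaks of 4 and 6 tags. The nearest peak to Ifit1 was an untreated one of 15 tags, 2376 bp away and assigned to the paralog Ifit1bl2. The promoter windows of Ifit3 and Ifit3b were 76.2% identical in a global alignment. The handling of reads that match more than 1 copy was not given in the sources used here. Whether reads match both copies was not tested, so the split between them remains uncertain.

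The OAS genes encode synthetases that activate the RNA-degrading enzyme RNase L, and the related Oasl genes encode OAS-like proteins. Oasl1 had the strongest R848 peak of all members (chr5:114921778-114922683), 750 bp upstream of the start, with a fold of 8.61 and 25 tags (16.2 to 36.9). The untreated list had an overlapping peak there of fold 8.13 and 15 tags (8.4 to 24.7), so the site was open in both libraries. Oas3 had a peak of 6 tags 25 bp upstream of the start, with an ISRE core 45 bp from its summit, and another of 6 tags deep inside the gene, both in the R848 list only. Oas1a had no R848 peak, but its untreated peak 1433 bp downstream of the start (chr5:120906023-120906267) had a fold of 8.13 and 15 tags, at percentile 98.2 of that list. It was the strongest untreated-only peak among the members. Oasl2 had 1 R848 peak and 4 untreated peaks without overlap, and Oas2 and Oas1g had none in either list. The promoter windows of Oas1a and Oas1g were 85.3% identical, and the Oas1a peak lay outside them. Whether reads of this cluster match more than 1 copy was not tested, so the split within it remains uncertain as well.

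Among the sensors of nucleic acid, Ddx58 encodes RIG-I, Ifih1 encodes MDA5 and Dhx58 encodes LGP2, which modulates both. Ddx58 had 3 R848-only peaks of 7, 8 and 8 tags inside the gene, 3367 to 6477 bp past the start, and 1 untreated-only peak of 5 tags. Dhx58 had R848-only peaks of 9 tags (chr11:100704279-100704536) and 8 tags, 183 and 798 bp from a gene end, and no untreated peak. Ifih1 had no assigned peak, and the nearest R848 peak was 17937 bp from the gene. The 3 sensors of this family thus gave 3 different pictures.

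Zbp1, which encodes a sensor of Z-form nucleic acid that triggers cell death, had 1 R848-only peak of 9 tags (chr2:173218585-173219127), 168 bp from a gene end. Eif2ak2, which encodes the kinase PKR that stops translation on binding double-stranded RNA, had 1 R848-only peak of 8 tags (chr17:78882379-78882578) 119 bp past the start. Neither gene had an untreated peak. Adar, which encodes the RNA editor that marks self RNA, had its 2 R848 peaks in both lists. The peak 31 bp past an internal start (chr3:89730613-89730867) held 11 tags at fold 5.09 in the R848 library, and its untreated partner held 7 tags at fold 4.06.

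Ifi204 and Ifi205 belong to the family of HIN domain proteins that sense DNA in the cytosol and nucleus. At Ifi204 a peak 67 bp from a gene end (chr1:173766853-173767306) held 14 tags (7.65 to 23.5) at fold 6.20 in the R848 library, and its untreated partner held 5 tags (1.62 to 11.7) at fold 3.05. Ifi204 also had 1 R848-only peak of 7 tags and 3 untreated-only peaks of 6 to 9 tags. The untreated-only peak of 6 tags (chr1:173767492-173767762) lay 498 bp from the same gene end. Ifi205 had 2 untreated-only peaks of 8 and 9 tags, the stronger with a fold of 5.08 (chr1:174023324-174023550), and no R848 peak. These genes lie among close paralogs, with which their promoter windows were not compared. Whether their reads match more than 1 copy was not tested, so their peaks remain uncertain too.

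The ISG15 system joins and removes that modifier, with Herc6 as a ligase of the mouse and Usp18 as the protease that also restrains interferon receptor signalling. Herc6 had 2 R848-only peaks, of which the one 155 bp past the start (chr6:57580813-57581443) had a fold of 5.51 and 12 tags, and 4 untreated-only peaks of 5 to 8 tags. Usp18 went the other way, with no R848 peak but 3 untreated-only peaks that held 5 to 9 tags. One of 7 tags lay 76 bp from a gene end, and the strongest (chr6:121253251-121253637) had a fold of 5.08. Isg15 had no assigned peak, but the nearest ones, 1589 bp away in the R848 list and 1493 bp away in the untreated list, held 14 and 6 tags and were assigned to the neighbouring gene Agrn. The locus of Parp14, Dtx3l and Parp9, which encode ADP-ribosyltransferases and the ubiquitin ligase partner of PARP9, had 4 R848-only and 1 untreated-only peaks. The strongest R848-only peak there (chr16:35889442-35890092) held 10 tags at fold 4.66, 18246 bp from Parp14, and the untreated-only peak held 5 tags, 139 bp from a Parp14 end. A site 740 bp upstream of Dtx3l (chr16:35939659-35939944) was present in both lists, with 10 tags in the R848 and 9 tags in the untreated library. It lies inside Parp9, which had no peak of its own because the end of Dtx3l was nearer.

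The interferon-inducible GTPases coat and disrupt vacuoles that hold microbes. Those of the Gbp family in the set share 141 kb of chromosome 3, with 5 R848-only and 10 untreated-only peaks. Gbp2 showed both kinds, with an R848-only peak at its start (chr3:142620490-142620828, 26 bp past it, fold 5.51, 12 tags) and 5 untreated-only peaks of 5 to 9 tags in and behind the gene. The Gbp2 ISRE core lay 81 bp from that summit, inside the peak. Gbp3 had 1 R848-only peak (chr3:142560272-142561011) of 12 tags and fold 4.71, 60 bp past the nearer of its 2 annotated starts, and no untreated peak. Its ISRE cores belong to the other start and lay outside the peak, 407 and 413 bp from the summit. At Gbp7 the start peak was in both lists, with 7 tags in the R848 and 8 tags in the untreated library.

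Gbp5 had no start peak and a site 3125 bp upstream in both lists, with 8 tags in the R848 and 7 tags in the untreated library. Irgm1, whose product directs the other immunity-related GTPases, had 1 site 784 bp upstream in both lists, with 9 tags in the R848 and 6 tags in the untreated library. Iigp1 had 1 R848-only peak of 6 tags and 2 untreated-only peaks of 10 and 11 tags. Igtp had none. Of the 6 GTPase genes with an annotated start, Gbp2 and Gbp3 had a start peak in the R848 list alone, Gbp7 and Irgm1 in both lists and Gbp5 and Igtp in neither.

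Rsad2, which encodes the antiviral enzyme viperin, and Cmpk2, which encodes a nucleotide kinase, lie side by side on chromosome 12 and had 4 R848-only peaks between them. The Rsad2 start peak (chr12:26456419-26456734) had 9 tags and a fold of 3.47, with its ISRE core 19 bp from the summit, the closest of all members. A stronger Rsad2 peak (chr12:26439393-26439657) of 11 tags and fold 5.09 lay 3222 bp beyond the other end of the gene. The Cmpk2 peak (chr12:26469118-26469450) of 11 tags and fold 5.04 lay 40 bp past the start. The only untreated peak of the pair held 5 tags and lay 60356 bp from Cmpk2.

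Trim30a, which encodes a TRIM protein that dampens Toll-like receptor signalling, had the widest gap in tags at a site present in both lists. The peak 23 bp past its start (chr7:104465021-104465490) held 19 tags (11.4 to 29.7) at fold 6.85 in the R848 library, and the untreated partner held 5 tags (1.62 to 11.7) at fold 3.05. Scaled by the ratio of the backgrounds, the R848 pileup would be 13.6 tags in the untreated library. Trim30a also had 4 untreated-only peaks of 8 to 10 tags inside the gene, the strongest with a fold of 5.34 (chr7:104432081-104432847). Isg20, which encodes an exonuclease of RNA, had 1 R848-only peak (chr7:78913706-78914155) of 10 tags 95 bp past a start and no untreated peak.

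Samd9l, which encodes a cytoplasmic antiviral and growth-restraining factor, had the most R848-only peaks of the members, 6, beside 6 untreated-only peaks and 1 site in both lists. The strongest R848-only peak (chr6:3345088-3345505) had a fold of 5.36 and 14 tags, 26939 bp from the gene, next to the shared site with 12 tags in the R848 and 6 tags in the untreated library. Its start carried an untreated peak of 5 tags and no R848 peak. Ifi44 had 2 R848-only and 7 untreated-only peaks, the strongest of which had a fold of 5.59 and 10 tags (chr3:151701628-151701864), and all 9 lay 25550 bp or more from the gene. Rtp4 had 1 R848-only peak of 6 tags and 2 untreated-only peaks of 4 and 6 tags. Xaf1 and Ifi35 had none, so that 9 members in all had no assigned peak in either list: Ifit1, Isg15, Oas1g, Oas2, Ifih1, Igtp, Ifi35, Parp9 and Xaf1. That was 21.4% of the 42 members, close to the 19.9% of all protein-coding genes with no peak.

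**Figure D4:**
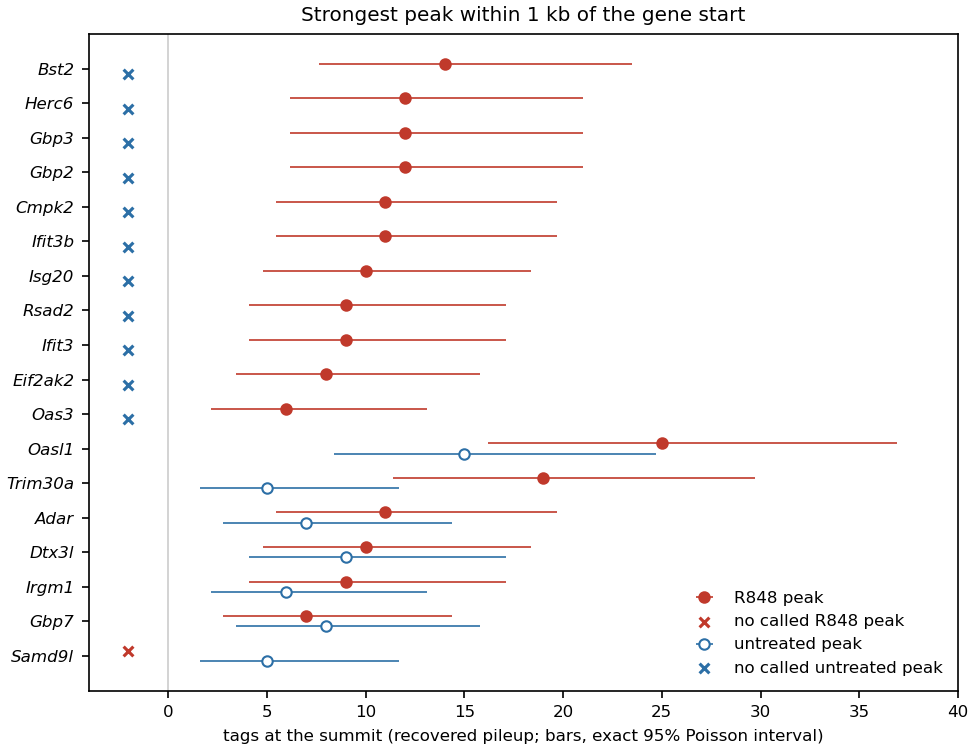
Tags at the summit of the strongest peak within 1 kb of the start (horizontal axis) for the 18 members with such a peak, in the R848 library (filled red) and the untreated library (open blue), with exact 95% Poisson intervals. Crosses left of 0 stand for no called peak. The 11 upper genes have R848 values of 6 to 14 tags and no untreated call, and Trim30a has 19 tags in the R848 and 5 in the untreated library.

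Counted over all distances the set looked much less one-sided. An R848-only peak was assigned to 25 of 42 members (59.5%, 95% Wilson interval 44.5 to 73.0), against 47.2% of all protein-coding genes. An untreated-only peak was assigned to 21 (50.0%, 35.5 to 64.5), against 56.9% of all. In total 45 R848-only and 59 untreated-only peaks lay at members, and 11 R848 peaks overlapped an untreated one. The untreated list is the longer one, and the order of these counts turned when it was shortened to the length of the R848 list. There were then 50 R848-only peaks at 27 members (64.3%) and 29 untreated-only peaks at 15 members (35.7%). Over all genes the shares were 51.0% and 38.6%, so their order turned too. At a −log10 q of 5 or more the order of the counts also turned, with 7 R848-only peaks and 1 untreated-only peak. By gene these were 16.7% and 2.38% of members, against 16.0% and 7.01% of all genes. The 7 included peaks at Trim30a and Ifi204, which counted as R848-only because their untreated partners fell under the limit. The 11 shared R848 peaks were 19.6% of member R848 peaks (11.3 to 31.8), against 33.1% of all R848 peaks with a gene within reach. Of the member untreated peaks 15.7% (9.01 to 26.0) overlapped an R848 peak, against 20.2%. Peaks of 1 gene or locus are not independent, and 19 members share 6 loci.

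**Figure D5:**
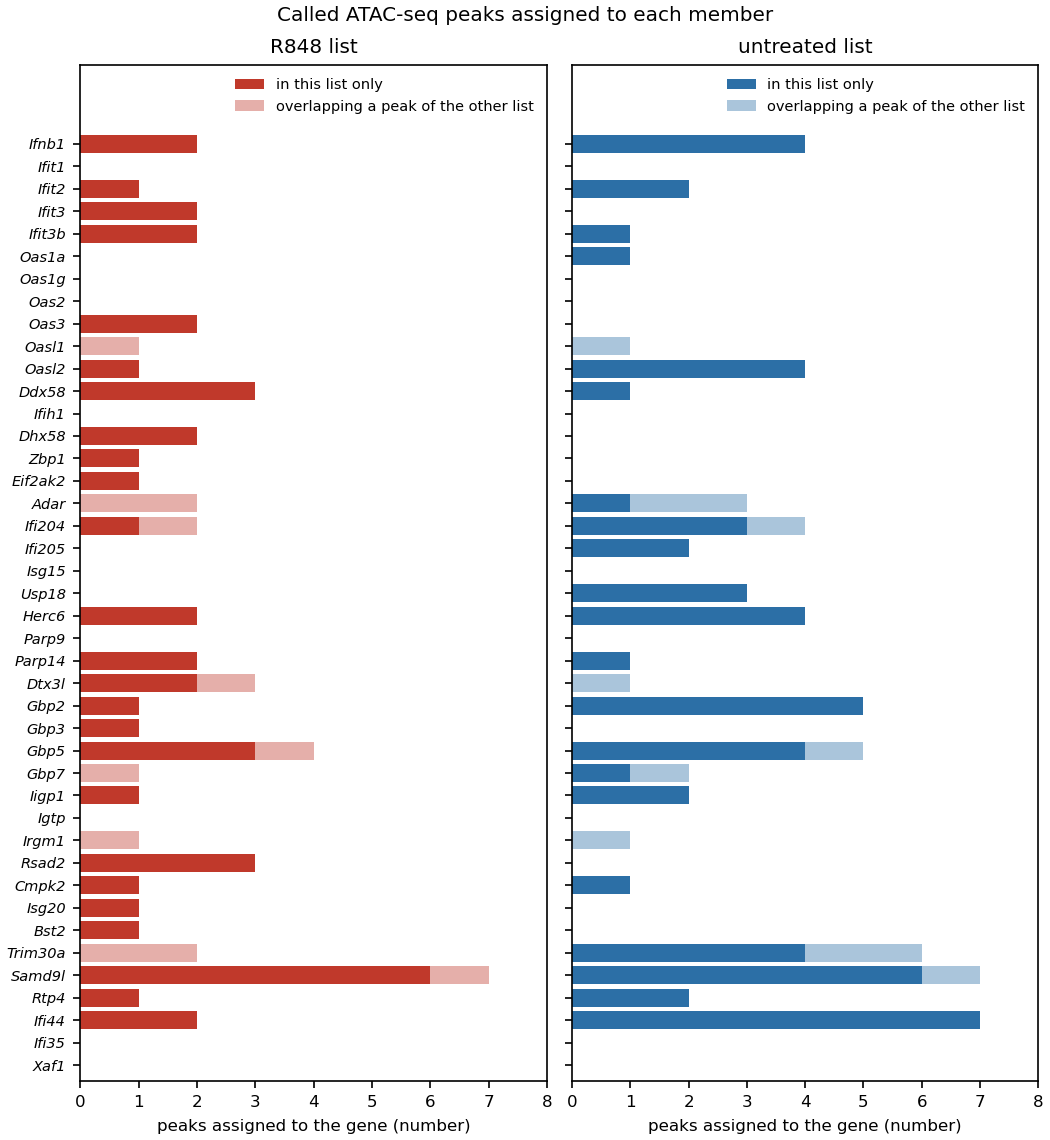
Number of called peaks assigned to each of the 42 members (horizontal axis), in the R848 list (left, red) and the untreated list (right, blue). Dark bars are peaks in that list only and pale bars peaks that overlap one of the other list. Samd9l leads the R848 side with 6 R848-only peaks, Ifi44 has 7 untreated-only peaks, and 9 genes have no bar on either side.

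Member peaks were also read by their distance from genes. Within 1 kb of a gene end there were 21 of 56 member R848 peaks (37.5%), against 27.6% of all R848 peaks with a gene within reach, and 11 of 70 member untreated peaks (15.7%), against 13.1% of such untreated peaks. By gene, 19 of 42 members had an R848 peak there (45.2%, 31.2 to 60.1), against 33.8% of all genes, and 10 had an untreated peak (23.8%, 13.5 to 38.5), against 26.7%. The median distance from a gene end was 3340 bp for member R848 peaks and 11110 bp for member untreated peaks. Over all assigned peaks it was 8436 bp in the R848 and 17713 bp in the untreated list. The farthest peaks inside the 100 kb limit were both at Samd9l, 91771 bp away in the R848 list and 91577 bp away in the untreated list. The nearest beyond it were 125505 bp from Samd9l (fold 2.80) in the R848 list and 101267 bp from Rtp4 (fold 6.60) in the untreated list.

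ISRE cores were set beside the R848 summits at the same start. Of 32 cores at 20 members, 17 cores at 11 members had an R848 peak within 1 kb of the same start, and 13 of them, at 9 members, lay inside that peak. With or without a core, 17 of 33 members (51.5%) had an R848 start peak. The distance between core and summit had a median of 81 bp and a range of 19 to 765 bp. Cores were sought only in the promoter window and summits only within 1 kb of the start, so short distances are in large part fixed by the way the pairs were made. A core was present at 8 of the 11 members with a start peak in the R848 list alone, at 3 of the 6 with one in both lists and at 9 of the other 16. Herc6, Cmpk2 and Isg20 had a start peak in the R848 list alone and no core in the window. Over all genes the core did not mark where R848-alone peaks lay. Of 689 genes with a core 13.8% had a start peak in the R848 list alone, and of 16802 without one 13.4% did. Any R848 start peak, shared or not, was found at 37.4% of genes with a core and 40.9% of those without.

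Other genes of the pathway were read in the same way. Of 24 genes of interferon signalling and its inducers with an annotated start, 8 had a start peak in the R848 list alone, 13 in both lists, 1 in the untreated list alone and 2 in neither. Over all genes with a promoter entry these classes held 13.4%, 27.3%, 3.82% and 55.5%. The 8 were Irf1, Irf3, Irf7 and Irf9, which encode interferon regulatory factors, Traf3, Traf6 and Ikbke, which encode signal carriers to them, and Socs3, which encodes a feedback inhibitor. An R848-only peak was assigned to 21 and an untreated-only peak to 13 of the 27 genes of this list in the gene table, with Irf2 (6), Tbk1 (4), Ifngr1 (3) and Socs3 (3) holding the most R848-only peaks. Of 27 other interferon-stimulated genes with an annotated start, 5 had a start peak in the R848 list alone, 5 in both, 2 in the untreated list alone and 15 in neither. The 5 were Cxcl10, Irgm2, Ifitm2, Trim25 and Tlr3. Of the 38 genes of that list in the table, 18 had an R848-only and 17 an untreated-only peak. Over all protein-coding genes 47.2% had an R848-only and 56.9% an untreated-only peak, so 18 of 38 lies close to the share of all genes. Both gene lists exclude members.

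Macrophage markers were read to check the label. Of the 6 with an annotated start 4 had a start peak in both lists and 0 in a single list. Over all genes with a promoter entry 27.3% had one in both lists, 13.4% in the R848 list alone and 3.82% in the untreated list alone. The marker groups are small, so their counts are descriptions only. Start peaks were found at 0 of 2 stromal, 1 of 3 B cell (untreated list alone), 1 of 7 T and NK cell (R848 list alone) and 2 of 6 neutrophil markers (both lists). Of 4 plasmacytoid dendritic cell markers, a type that makes interferon through Toll-like receptor 7, Siglech and Bcl11a had a start peak in the R848 list alone and 1 gene had one in the untreated list alone. R848-only peaks over all distances, which 47.2% of all protein-coding genes had, did not set macrophage markers apart. They were assigned to 8 of 10 macrophage, 6 of 6 stromal, 4 of 6 B cell, 4 of 6 neutrophil, 3 of 6 plasmacytoid dendritic cell and 1 of 8 T and NK cell markers. The part of such cells in the results was not tested.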

How the data were processed

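ATAC-seq peak lists of 1 R848 and 1 untreated BMDM library were used. Per the submitters' processing notes, bcl2fastq 2.19, Bowtie2 2.2.6 and MACS2 2.2.7.1 were used on mm10. Settings, read filters, duplicate handling and insertion-site shifts are not given in the sources used here. Each deposited fold is a ratio, (pileup + 1)/(background + 1), within its library. Significance was deposited for each summit as −log10 p and as −log10 q, and the lowest −log10 p was 2.01 in both lists.

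Tags and background were solved from the fold and the p-value, read as a Poisson tail, with a match within 0.1% for 99.8% of R848 and 99.9% of untreated peaks. Peaks counted as present in both lists when they overlapped by at least 1 bp. Genes were the protein-coding entries of the RefSeq GRCm38.p6 table. Starts and sequences came from the RefSeq promoter table, which held an entry for 33 of 42 members. Oas2, Usp18, Dhx58, Zbp1, Iigp1, Ifi204, Rtp4, Parp9 and Parp14 had none there. The kB motif was the standard 10-base consensus, and a further motif that was searched is not reported here. Promoter windows were aligned with Biopython 1.88. Tools were Python 3.11.15, pandas 2.3.3, numpy 2.4.6, matplotlib 3.10.9 and scipy 1.17.1. Assignment, overlap and tag recovery were tested on simulated data. No p-value was computed, since each group had 1 library, and Wilson intervals cover counting error only.

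Members and gene lists were chosen with earlier results of these data known. Peaks were described for the 12 members with the strongest R848-only peak, the 8 with the strongest shared peak, the 6 with the strongest untreated-only peak, and those with an R848-only peak at a gene end. Peaks of further members, and the grouping by role, were added after their values were seen. Alternatives changed the distance limit, the gene assignment, the q limit, the list length, the overlap and the motif. The gene-start classes and their alternatives were added after the data were examined.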

Additional observations from a re-analysis of the deposited data

How the results depend on the processing

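No paired analysis was possible because each group held 1 library. Of 83 values recomputed under 12 alternatives, 53 stayed close to those given (counts within 1.5 times, shares within their interval) and 30 moved. With gene ends within 20 kb, untreated-only peaks at members numbered 34. With peaks given to all genes within 50 kb there were 78 R848-only and 97 untreated-only peaks, 36 R848 peaks were in both lists, 39 members had an R848-only peak and 40 an untreated-only one (77.2% and 87.4% of all genes), and 27.1% of member untreated peaks were in both lists. At a −log10 q of at least 5 there were 7 R848-only peaks at 7 members (16.7%, all genes 16.0%), 1 untreated-only peak at 1 member (2.38%, all genes 7.01%) and 1 R848 peak in both lists, and 50.0% of member untreated peaks were shared. At that setting 6 members (14.3%) had an R848 peak at a gene end and 1 (2.38%) an untreated one, against 16.6% and 6.80% of all genes. Start peaks lay at 4 members in the R848 list alone (all genes 13.0%), 1 in both (8.46%) and 0 in the untreated list alone (0.572%), so no excess was left at that setting. At a q at or under 0.05 there were 29 R848-only and 38 untreated-only peaks, and 7 R848 peaks in both lists. At that limit 6 members (14.3%) had an untreated peak at a gene end, against 22.6% of all genes. With lists of equal length there were 29 untreated-only peaks and 6 R848 peaks in both lists (10.7% of member R848 peaks). With those lists 6 members (14.3%) had an untreated peak at a gene end, against 19.3% of all genes. A start peak in the untreated list alone was found at 0 members, against 1.7% of all genes. At 500 bp 6 members (14.3%) had an untreated peak at a gene end, against 23.1% of all genes, and 3 (9.09%) had a start peak in both lists, against 25.6%. At 2 kb 2 members (6.06%) had a start peak in the untreated list alone, against 5.38% of all genes. The 11 members with a start peak in the R848 list alone were 10 at a q at or under 0.05 (11.6% of all genes) and 11 with lists of equal length (18.8%), within 500 bp (12.7%) and within 2 kb (14.3%). The core followed by C was found at 16 members and 0.955% of all genes, and the pair GAANNGAA, which has another spacing, at 19 and 21.6%. The cause of these moves was not tested beyond fewer peaks or a wider reach entering by construction. Pileups of 4 to 25 tags limit every single peak.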
